A study of Mus musculus with 4 samples.

Results

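Negative feedback on MAP kinase signalling was examined in mouse pancreatic beta cells through 9 genes chosen by name: 5 dual-specificity phosphatase genes (Dusp1, Dusp4, Dusp6, Dusp10 and Dusp26), 2 sprouty genes (Spry2 and Spry4) and 2 spred genes (Spred1 and Spred2). All 9 were found among the 31017 gene names of the count tables, and all 9 were among the 13241 genes with enough counts to be tested. The data are 4 RNA-seq libraries of wild type beta cells from the islets of 10-week-old C57BL/6J males. After isolation, overnight culture and trypsin dissociation of the islets, the cells were sorted by flow cytometry into CD63 high and CD63 low cells, with 2 libraries in each group. CD63 is a membrane protein of the tetraspanin family, found on lysosomes and vesicles. No gate other than CD63 is named, and nothing says that the 2 replicates of a group are different mice or different sorts. The p-values therefore reflect only how these libraries vary, which may be technical.

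MAP kinases are the last kinases of cascades that carry signals from growth factor receptors (the ERK branch) and from stress and cytokines (the JNK and p38 branches) to the nucleus. The feedback genes act at separate steps: sprouty and spred proteins restrain the cascade between the receptor, Ras and Raf, while the dual-specificity phosphatases remove phosphate from the activated kinases themselves. Several of them are transcribed in response to the kinases they later restrain, so that their transcripts are commonly followed beside MAP kinase activity. In beta cells, glucose and incretins are known to activate ERK.

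Total counts were 29249270 to 35003307 per library, so that 1 CPM (a count divided by the total count, on a scale where each library adds up to the same sum) stood for 29.2 to 35.0 counts. Ins1 and Ins2, the insulin genes, took 48.7% to 56.4% of all counts. The transcript of the sorting marker, Cd63, was taken in CPM scaled by TMM, a correction for differences in library composition. It stood at 1973 and 2076 CPM in CD63 high and at 1186 and 1120 CPM in CD63 low replicates 1 and 2. RNA of other cell types was unevenly spread over the groups. Of 16 macrophage markers 14 were called higher in CD63 high cells, as were 3 of 11 tested acinar, 2 of 9 alpha cell, 3 of 4 delta cell, 3 of 3 gamma cell, 1 of 9 duct and 1 of 4 stellate and fibroblast markers, and none of these was called lower. Of 14 beta cell genes 4 were called lower (Slc2a2, Glp1r, Mafa and Slc30a8) and 0 higher, with 11 of the 14 below 0 and a median of -0.50 on the log2 scale. Summed marker levels, here and below, are CPM of the total count without TMM scaling. The macrophage markers summed to 226 and 705 CPM in CD63 high and to 29.2 and 52.7 CPM in CD63 low replicates 1 and 2. The summed acinar markers were at 794 and 1268 against 21.2 and 335 CPM, and the alpha cell markers at 6194 and 6597 against 1231 and 1324 CPM. Lymphocyte markers summed to 0.821 to 2.25 CPM over the 4 libraries, with 6 of 10 at 0 in every library, Cd3e among them. Endothelial markers summed to 5.44 to 9.04 CPM, with Cdh5 and Tie1 at 0.

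In CD63 high cells the sprouty gene Spry4 rose 4.66-fold and was the only one of the 9 genes past the test. The ERK phosphatase gene Dusp6 (4.38-fold) and the stress-induced phosphatase gene Dusp1 (2.26-fold) had higher levels in both CD63 high libraries than in either CD63 low library and narrowly missed the threshold. Dusp26 and Spred2 had lower levels in both CD63 high libraries, without passing. Spred1 had nearly equal means in the groups, with wide error. These folds and tests come from edgeR's quasi-likelihood test over all 13241 genes, with Benjamini-Hochberg adjustment and a threshold of 0.05. It called 2.79% of all tested genes (2.5% higher and 0.287% lower in CD63 high), against 1 of these 9. At an unadjusted p under 0.05 stood 4 of the 9, 3 higher and 1 lower in CD63 high, against 14.9% of all tested genes (8.95% higher and 5.96% lower). The levels of the groups did not overlap for 7 of the 9 genes, 5 higher and 2 lower in CD63 high, against 46% of all tested genes (23.8% higher and 22.2% lower). The 9 genes had a median log2 fold change of 0.77, beside -0.01 over all tested genes. They were chosen with earlier results of these data known, so these comparisons with all tested genes are descriptive only. Levels of single genes below are CPM scaled by TMM, as for Cd63 above, while summed marker levels are CPM without TMM scaling. Because these are bulk libraries, more or fewer cells of a type and more or less RNA per cell cannot be told apart.

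**Figure D1:**
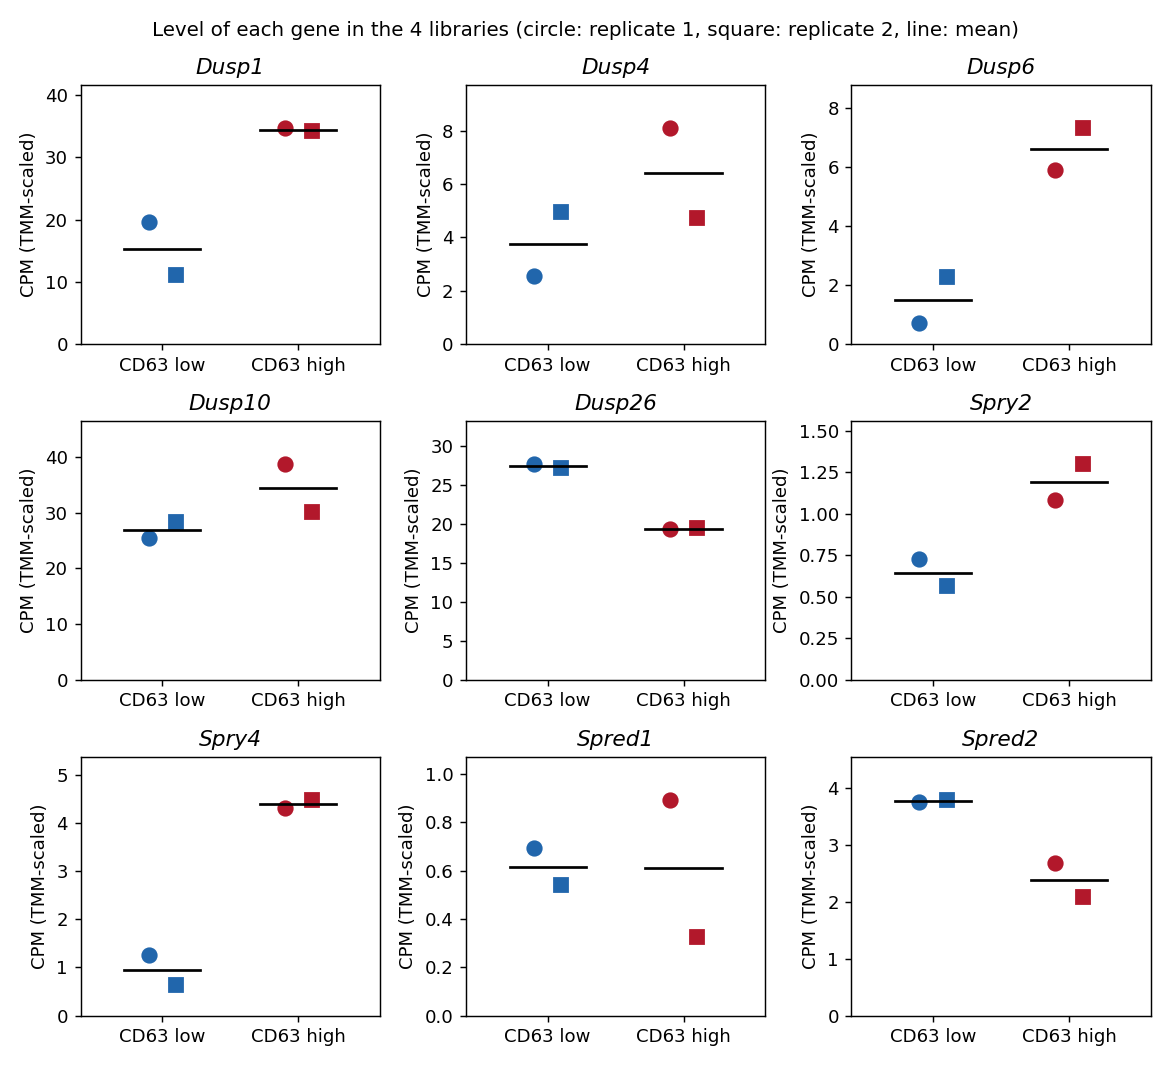
Level of each of the 9 genes in CPM (TMM-scaled, linear axes from 0) in the CD63 low (blue) and CD63 high (red) libraries, with circles for replicate 1, squares for replicate 2 and a line at the mean of each group. Dusp1, Dusp6, Dusp10, Spry2 and Spry4 lie higher in both CD63 high libraries, Dusp26 and Spred2 lie lower in both, and the groups overlap for Dusp4 and Spred1.

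Dusp1 encodes a nuclear phosphatase, also known as MKP-1, that acts on p38, JNK and ERK and is induced within minutes by stress and growth factors. The gene (chromosome 17, 26505590 to 26508519, minus strand, mm10; protein coding) had 1088 and 949 counts in CD63 high and 593 and 432 counts in CD63 low replicates 1 and 2. These were levels of 34.7 and 34.3 CPM against 19.5 and 11.1 CPM. The CD63 high libraries lay close together, the CD63 low libraries apart, and the groups did not overlap. The log2 fold change was 1.17 (SE 0.28, 95% interval 0.55 to 1.79), with an edgeR adjusted p of 0.0550. Dusp1 passed the threshold in 12 of 15 alternative analyses, with adjusted p from 0.000353 without CD63 low replicate 1 to 0.131 with library size as the only scaling. Its log2 fold change was 1.63 without CD63 low replicate 1 and 0.84 without CD63 low replicate 2. All 15 alternatives, here and below, refit these same libraries, and 1 of them (a crossed pairing) was added after the data were seen.

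Dusp1 is a textbook target of the cyclic AMP response element binding protein, and the sequence before its start site is shown for that reason, beside that of Dusp6, which had the larger fold. Each run is the 250 bases before the annotated start, read 5′ to 3′ on the strand of the gene, from RefSeq on GRCm38.p6. Of 8 motifs searched, capitals mark matches to the first 6 named after the runs.
Dusp1, chr17:26508473-26508722, minus strand: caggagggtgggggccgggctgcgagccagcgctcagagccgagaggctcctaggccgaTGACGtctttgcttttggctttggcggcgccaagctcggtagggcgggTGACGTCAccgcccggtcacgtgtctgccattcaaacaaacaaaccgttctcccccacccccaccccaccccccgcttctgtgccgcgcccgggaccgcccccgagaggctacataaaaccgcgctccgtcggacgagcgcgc
Dusp6, chr10:99262981-99263230, plus strand: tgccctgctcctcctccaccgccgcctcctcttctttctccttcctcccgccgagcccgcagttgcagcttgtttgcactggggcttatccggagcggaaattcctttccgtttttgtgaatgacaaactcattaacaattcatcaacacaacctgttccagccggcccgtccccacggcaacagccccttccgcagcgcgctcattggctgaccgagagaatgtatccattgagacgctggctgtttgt
The motifs were searched on both strands: the cyclic AMP response element TGACGTCA, its shorter core TGACG, the AP-1 site TGANTCA, the serum response CArG box, the ETS site CCGGAAG and the EGR site GCGGGGGCG, and, left in lower case, the GC box GGGCGG and the TATA box TATAAA. The Dusp1 run holds 1 full TGACGTCA, at 143 to 136 bases before the start, and a separate TGACG core at 191 to 187 bases before it. The full element contains the core on either strand. Of 32841 promoter runs of the same length, 1.55% hold TGACGTCA and 17.8% hold TGACG. It also holds 3 GC boxes, at 150 to 145, 135 to 130 and 48 to 43 bases before the start, and the first and second flank the full element. The Dusp6 run holds none of the 8 motifs, which says only that these letters are not in this window. The other motifs occur in 6.75% (AP-1), 1.47% (CArG box), 6.91% (ETS), 2.57% (EGR), 32.7% (GC box) and 12.4% (TATA box) of all runs. Of the 9 genes, 6 matched the promoter table (Dusp1, Dusp6, Dusp10, Spry2, Spred1 and Spred2). Besides Dusp1, Spred2 holds 1 TGACG core, at 51 to 47 bases before the start used for its run. Spred2 holds 1 GC box, and Dusp10 and Spred1 hold 2 each. No other match was found in the 6 runs. The starts used for these runs are not always the gene starts given here. The Dusp1 run overlaps the end of the gene span at 26508519, with the full element outside the overlap. The Spred2 run (19924192 to 19924441) reaches past the gene start at 19924375, and its TGACG core lies inside the gene span. The Dusp10 run (184034131 to 184034380) lies wholly inside the gene span, which starts at 184013302. The Spred1 run (117120821 to 117121070) ends before the gene start at 117121374. The first bases after that run were not found in an annotated Spred1 transcript.

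Dusp6 encodes the cytoplasmic phosphatase MKP-3, which is selective for ERK, and its transcript is a common readout of ERK activity. The gene (chromosome 10, 99263231 to 99267489, plus strand, mm10; protein coding) had 185 and 203 counts in CD63 high and 22 and 88 counts in CD63 low replicates 1 and 2. These were levels of 5.90 and 7.33 CPM against 0.725 and 2.26 CPM. Both CD63 high libraries lay above both CD63 low libraries, but the CD63 low libraries differed widely from each other. The exact 95% Poisson intervals of their counts, 13.8 to 33.3 and 70.6 to 108, do not meet, so the gap exceeds counting error. The log2 fold change was 2.13 (SE 0.52, 95% interval 0.98 to 3.28), with an edgeR adjusted p of 0.0591. It was 3.20 without CD63 low replicate 2 and 1.54 without CD63 low replicate 1. Dusp6 passed in 8 of 15 alternatives, with adjusted p from 7.49e-05 with no filter on low counts to 0.222 with library size as the only scaling.

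Dusp4 encodes MKP-2, a nuclear phosphatase of ERK and JNK that is close in structure to MKP-1. The gene (chromosome 8, 34807297 to 34819894, plus strand, mm10) stood at 8.10 and 4.73 CPM in CD63 high and at 2.54 and 4.95 CPM in CD63 low replicates 1 and 2, from 254, 131, 77 and 193 counts. CD63 high replicate 2 lay below CD63 low replicate 2, so the groups overlapped. The log2 fold change of 0.77 (SE 0.43, 95% interval -0.18 to 1.73) did not pass (edgeR adjusted p 0.456), and it passed in none of the 15 alternatives. It ranged from 0.33 without CD63 high replicate 1 to 1.36 without CD63 low replicate 2.

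Dusp10 encodes MKP-5, a phosphatase that prefers p38 and JNK over ERK. The gene (chromosome 1, 184013302 to 184075636, plus strand, mm10) was well covered, with 1215 and 833 counts in CD63 high and 774 and 1106 counts in CD63 low replicates 1 and 2. Its levels were 38.8 and 30.1 CPM against 25.5 and 28.4 CPM. The groups did not overlap, but the gap between them was smaller than the spread within CD63 high. Its log2 fold change of 0.35 (SE 0.22, 95% interval -0.14 to 0.85) did not pass (edgeR adjusted p 0.525), and was 0.16 without CD63 high replicate 1.

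Dusp26 encodes an atypical dual-specificity phosphatase, without the kinase-docking domain of the MKPs, that is known from neural and neuroendocrine tissue. The gene (chromosome 8, 31089471 to 31097047, plus strand, mm10) had 607 and 540 counts in CD63 high and 842 and 1060 counts in CD63 low replicates 1 and 2. Its levels were 19.4 and 19.5 CPM in CD63 high and 27.7 and 27.2 CPM in CD63 low cells. The replicates of each group lay close together and the groups did not overlap, a level 1.41-fold lower in CD63 high cells. The log2 fold change was -0.50 (SE 0.22, 95% interval -0.98 to -0.02), with an unadjusted p of 0.0431 and an edgeR adjusted p of 0.315, which did not pass. It lay between -0.54 and -0.47 in all 15 alternatives and passed in none. Dusp26 and Dusp4 are the only pair of the 9 genes on the same chromosome, 3.71 megabases apart. Their log2 fold changes had opposite signs, with neither past the threshold.

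Spry4 encodes a sprouty protein, a membrane-associated inhibitor of the step from growth factor receptors to Ras and Raf that is itself induced by ERK signalling. The gene (chromosome 18, 38586268 to 38601268, minus strand, mm10; protein coding) had 135 and 124 counts in CD63 high and 38 and 25 counts in CD63 low replicates 1 and 2. These were levels of 4.31 and 4.48 CPM against 1.25 and 0.642 CPM. Both CD63 high libraries stood well above both CD63 low libraries, and the gap between the groups was larger than the spread within either. Spry4 rose with a log2 fold change of 2.22 (SE 0.52, 95% interval 1.08 to 3.36) and an edgeR adjusted p of 0.0492, just inside the threshold. The call ended with library size as the only scaling (adjusted p 0.104), limma-voom (0.0519), a robust fit of the dispersion (0.0517), without CD63 high replicate 2 (0.0501) and without CD63 low replicate 2 (0.117). The direction was the same in all 15 alternatives, with log2 fold changes of 1.82 to 2.76, both ends reached by leaving out a CD63 low library (replicate 2 and replicate 1).

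Spry2 encodes the sprouty protein that binds the ubiquitin ligase CBL and acts on the same pathway. The gene (chromosome 14, 105891947 to 105896819, minus strand, mm10) was scarce, with 34 and 36 counts in CD63 high and 22 counts in each CD63 low library. Its levels were 1.08 and 1.30 CPM against 0.725 and 0.565 CPM. The groups did not overlap in level, with 70 counts over the CD63 high and 44 over the CD63 low libraries. The difference did not pass (log2 fold change 0.89, SE 0.72, 95% interval -0.70 to 2.47, edgeR adjusted p 0.642), and the interval is too wide to give its direction.

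The spred genes encode sprouty-related proteins that bring neurofibromin, a Ras inactivator, to the membrane. Spred2 (chromosome 11, 19924375 to 20024026, plus strand, mm10) had 84 and 58 counts in CD63 high and 114 and 148 counts in CD63 low replicates 1 and 2. Its levels were 2.68 and 2.09 CPM against 3.76 and 3.80 CPM. Both CD63 high libraries were lower and the groups did not overlap, yet the log2 fold change of -0.66 (SE 0.43, 95% interval -1.60 to 0.28) did not pass (edgeR adjusted p 0.532). Spred1 (chromosome 2, 117121374 to 117182279, plus strand, mm10) was the scarcest of the 9 genes, with 28 and 9 counts in CD63 high and 21 counts in each CD63 low library. Its levels of 0.893 and 0.325 CPM in CD63 high enclosed the CD63 low levels of 0.692 and 0.539 CPM. With a log2 fold change of -0.01 and a 95% interval of -1.95 to 1.94, a rise or a fall of nearly 4-fold could not be told from no difference in these libraries. The width of this interval is itself uncertain, since its SE of 0.88 became 1.77 with RLE size factors at nearly the same estimate.

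**Figure D2:**
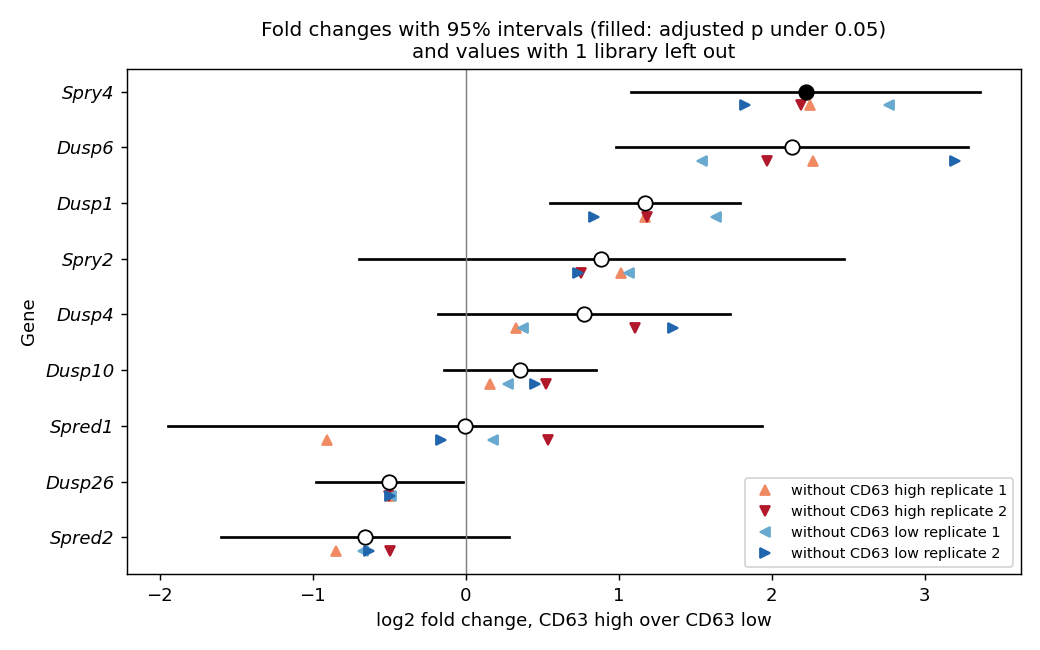
log2 fold change of each gene, CD63 high over CD63 low (x axis), with its 95% interval from edgeR (line) and, as coloured triangles, the values with 1 library left out. The filled circle marks Spry4, the only gene past the threshold, and the triangles of Dusp26 lie on top of each other while those of Dusp6 reach from 1.54 to 3.20.

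Levels of different genes were compared per kilobase of exon, since long transcripts collect more counts. In CD63 low cells Dusp26 was the most abundant of the 9 transcripts, at 12.0 and 11.8 CPM per kilobase, followed by Dusp10 at 8.38 and 9.33 and Dusp1 at 7.24 and 4.11. In CD63 high cells Dusp1 was at 12.9 and 12.7 CPM per kilobase and Dusp10 at 12.7 and 9.89, while Dusp26 was at 8.40 and 8.46. The ranges of Dusp1 and Dusp10 in CD63 high overlapped at 12.7, so their order there is not resolved. The other 6 genes were scarcer in every library. Dusp4 reached 0.926 to 2.96 CPM per kilobase over the 4 libraries and Dusp6 0.231 to 2.34, which overlap. Spred2 (0.453 to 0.822), Spry4 (0.140 to 0.976) and Spry2 (0.271 to 0.623) overlapped as well, and Spred1 was lowest, at 0.0479 to 0.132 CPM per kilobase. The exon length counts all annotated exons of a gene, so that a gene with rarely used exons is set too low.

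**Figure D3:**
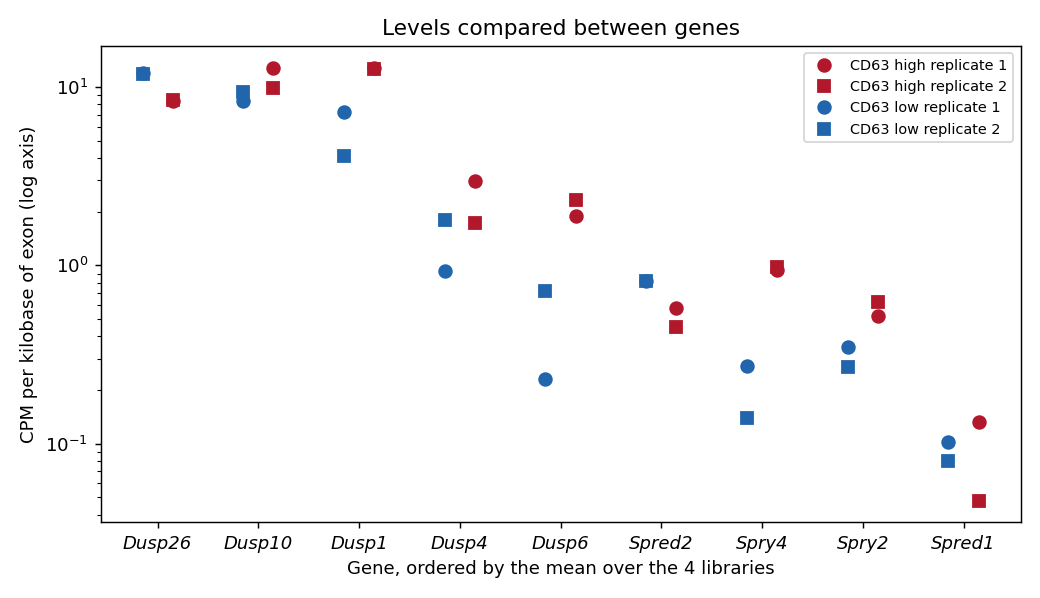
Level of each gene per kilobase of exon (log axis, CPM per kilobase, TMM-scaled) in the 4 libraries, ordered from left to right by the mean over all 4. Dusp26, Dusp10 and Dusp1 stand above the other 6 genes in every library, and Dusp26 is the highest in CD63 low cells only.

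The remaining members of these families gave no call. Of 6 other MAP kinase phosphatase genes 4 were tested and edgeR called 0, with 2 at an unadjusted p under 0.05. DESeq2 called 1 of them, lower, and limma-voom 0. Dusp7, another ERK phosphatase gene, stood at 11.2 and 13.0 CPM in CD63 high and at 21.1 and 26.4 CPM in CD63 low replicates 1 and 2, with a log2 fold change of -0.97 (SE 0.25, edgeR adjusted p 0.0674). Dusp16, whose product prefers JNK and p38, had the other unadjusted p under 0.05, at 3.99 and 4.15 against 2.14 and 1.26 CPM (log2 fold change 1.26, SE 0.47, edgeR adjusted p 0.220). Dusp5 and Dusp8 had log2 fold changes of -0.03 and 0.33, Dusp2 had no count in any library and Dusp9 had 3 counts in all. Of 9 tested genes among the other dual-specificity phosphatases edgeR, DESeq2 and limma-voom each called 0, and 0 had an unadjusted p under 0.05. Their log2 fold changes lay between -0.42 and 0.46. Spred3 stood at 1.69 and 1.63 CPM against 0.395 and 0.257 CPM (log2 fold change 2.34, SE 0.74, edgeR adjusted p 0.142, not passed). Spry1 had 1 count in all 4 libraries together and Spry3 had 0.

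Of the kinases that these inhibitors act on, the transcripts given here did not pass the test. Mapk3, which encodes an ERK kinase, had a log2 fold change of -0.21 (SE 0.20), with an edgeR adjusted p of 0.702. Mapk14, which encodes p38 alpha, was at -0.14 (SE 0.19), and Mapk8, which encodes a JNK kinase, at 0.38 (SE 0.39). Of 34 tested genes of the ERK cascade 1 fell and 0 rose, and the median over the 34 was -0.02 on the log2 scale. Of all tested genes 0.287% were called lower. A single call among 34 genes is close to the 2.79% called in either direction over all tested genes. It was Rps6ka2, an ERK-activated ribosomal S6 kinase, at 21.0 and 18.6 CPM in CD63 high and 34.9 and 54.5 CPM in CD63 low replicates 1 and 2 (log2 fold change -1.18, SE 0.26, edgeR adjusted p 0.0360). Its call ended without CD63 high replicate 2 (adjusted p 0.0762), without CD63 low replicate 2 (0.130) and with library size as the only scaling (0.184). Of 31 tested genes of the JNK and p38 cascades edgeR called 0, with 5 at an unadjusted p under 0.05, close to the 14.9% of all tested genes. DESeq2 called 1 of the 31, higher, and limma-voom 0.

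Each list below had 1 call, too few to describe the list, where 2.5% of all tested genes were called higher and 0.287% lower in CD63 high. At the receptor level, 1 of 13 tested growth factor receptor genes fell and 0 rose. This was Insrr, the insulin receptor-related receptor, with levels of 32.6 and 32.9 CPM in CD63 high and 93.7 and 127 CPM in CD63 low replicates 1 and 2 (log2 fold change -1.75, edgeR adjusted p 0.00331, and 0.0504 with library size as the only scaling). Of 11 tested growth factor genes 1 rose: Igf1, which macrophages also make, had 168 counts over the CD63 high libraries and 0 in CD63 low. Set against 3 counts over both CD63 low libraries it was at least 66.6-fold higher. Among 16 tested Ras inactivators and other inhibitors of the ERK pathway 1 rose and 0 fell. Errfi1, a feedback inhibitor of the EGF receptor that is induced by ERK, stood at 84.4 and 70.8 CPM in CD63 high and at 34.6 and 30.5 CPM in CD63 low replicates 1 and 2. Both CD63 high libraries were above both CD63 low libraries. The log2 fold change was 1.26 (SE 0.21) and the edgeR adjusted p 0.00972. Of the 15 alternatives it lost the call in 1, library size as the only scaling (adjusted p 0.0764).

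Transcripts known to be induced by ERK signalling were the list with the highest median among those of the pathway with more than 1 tested gene. Of 24 tested genes 6 rose and 0 fell, against 2.5% and 0.287% of all tested genes, and the median over the 24 was 0.98 on the log2 scale. The list was chosen with earlier results of these data known, so these numbers describe it and are no independent evidence. The 4 with the smallest p were Ier3 (log2 fold change 2.18, SE 0.28), the AP-1 subunit gene Fos (2.37, SE 0.35), the stress-induced factor gene Atf3 (3.56, SE 0.54) and the ETS factor gene Etv1 (2.10, SE 0.35). Fos stood at 59.1 and 26.8 CPM in CD63 high and at 7.64 and 8.98 CPM in CD63 low replicates 1 and 2, and its log2 fold change was 1.68 without CD63 high replicate 1. The calls of Fos and Etv1 ended under scaling by library size alone (adjusted p 0.0798 and 0.102). Etv5, an ETS factor gene often followed together with Dusp6 and Spry4 and named after its values were seen, was at 9.83 and 6.86 against 3.16 and 4.70 CPM (log2 fold change 1.08, SE 0.36, edgeR adjusted p 0.166), which did not pass. Several of these genes also respond to JNK, p38 and calcium signals. The number that rose was 2 with library size as the only scaling, 12 with no filter on low counts, 10 without CD63 high replicate 2 and 10 without CD63 low replicate 1.

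**Figure D4:**
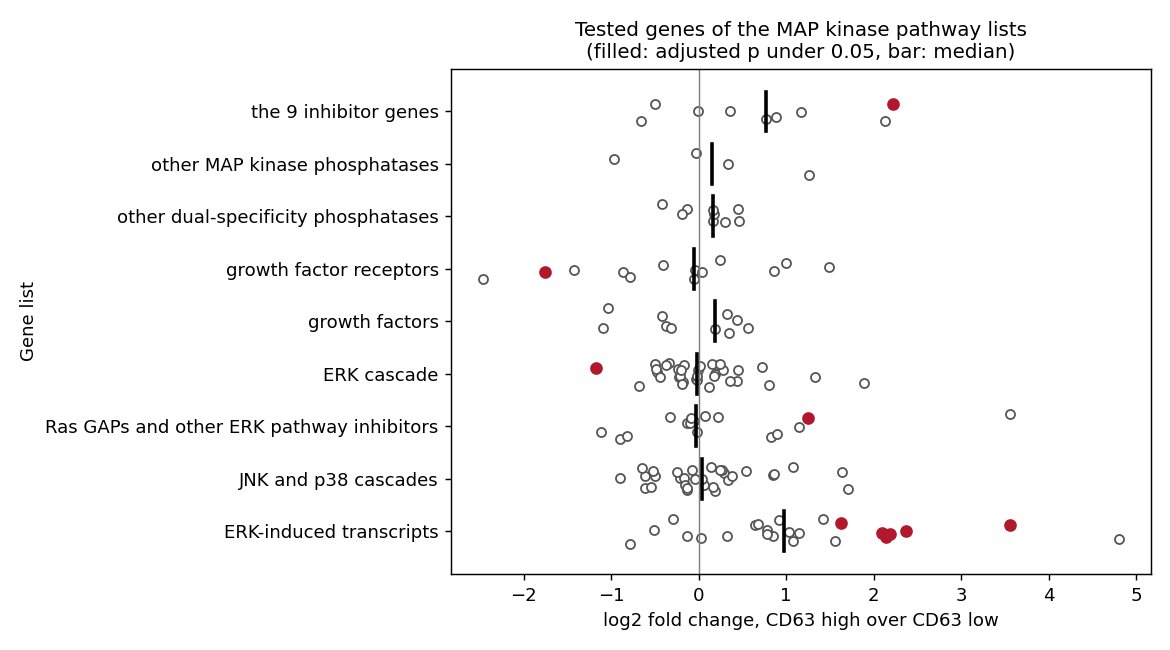
log2 fold change, CD63 high over CD63 low, of each tested gene in the lists of the MAP kinase pathway, with filled points for an edgeR adjusted p under 0.05 and a bar at the median of the list. The 9 inhibitor genes and the ERK-induced transcripts have medians of 0.77 and 0.98, the ERK cascade and the JNK and p38 cascades medians of -0.02 and 0.04, and Igf1, without counts in CD63 low, is not drawn.

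Macrophage markers moved in the same direction as Spry4, Dusp6, Dusp1 and the ERK-induced transcripts, and macrophages express several of these genes. The summed level of the macrophage markers, without TMM scaling, was 226 CPM in CD63 high replicate 1 and 705 CPM in CD63 high replicate 2. Between the same 2 libraries the TMM-scaled levels were 4.31 and 4.48 CPM for Spry4, 34.7 and 34.3 CPM for Dusp1 and 5.90 and 7.33 CPM for Dusp6. The 2 scales differ, so small differences between libraries are not comparable across them. In CD63 low replicates 1 and 2 the summed level was 29.2 and 52.7 CPM, while Spry4 was at 1.25 and 0.642 CPM, Dusp1 at 19.5 and 11.1 CPM and Dusp6 at 0.725 and 2.26 CPM. Of the 3 genes, Dusp6 was thus higher in the library with more macrophage RNA within both groups. Without TMM scaling, the summed acinar, alpha cell and delta cell markers were also higher in these same libraries within both groups. For the alpha cell markers in CD63 low (1231 and 1324 CPM) this order does not hold after scaling by the TMM factors, 0.921 and 1.11. The summed gamma cell markers, duct markers and stellate and fibroblast markers were not so in both groups. Without CD63 high replicate 2, the library with more macrophage RNA, the log2 fold changes of Spry4, Dusp6 and Dusp1 were 2.19, 1.97 and 1.18. The CD63 high library that stayed in still had more macrophage, acinar and alpha cell marker RNA than either CD63 low library. Leaving out replicate 2 thus did not take the imbalance away. The part of macrophage, acinar or alpha cell RNA in these differences was not tested.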

How the data were processed

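Per the file headers, the authors deposited raw counts of read pairs per gene name, made with featureCounts 1.6.2 without a strand option on the Cell Ranger mm10 annotation, so reads with several alignments were left out. The aligner STAR 2.6.0c appears per the submitters' processing notes. No exon of the 9 genes overlaps another gene in these tables. SMARTer low-input amplification without molecular identifiers, per the labels' protocols, lets PCR copies count as reads, so Poisson intervals cover counting error only.

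Libraries were grouped by title. Genes passing filterByExpr (minimum count 10, minimum total 15) were TMM-scaled and tested with glmQLFit and glmQLFTest in edgeR 4.0.16 (R 4.3.3), all 4 libraries, group as the only term, after the code had been tested on simulated data. The standard error of a log2 fold change was taken as its absolute value divided by the root of the F statistic. Within each group the libraries differed by more than sampling noise (chi-square per degree of freedom 31.1 and 61.2). DESeq2 1.42.0, limma-voom (limma 3.58.1), other scalings, filters, a replicate block and leaving out each library were alternatives.

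Members and gene lists were chosen with earlier results of these data known. Named were all 9 members, Cd63, Mapk3, Mapk8, Mapk14, and the called genes of each pathway list, at most the 4 with the smallest p per direction. The same rule covered the marker lists, which are given here as sums and counts only. A further gene of the rule is not reported here. Other genes named with values were chosen after these were seen.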

Additional observations from a re-analysis of the deposited data

How the results depend on the processing

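The number of genes called over the whole table, 369, became 67 with library size as the only scaling, 940 with no filter on low counts, 686 with DESeq2 and 450 to 769 when each library was left out in turn, most without CD63 low replicate 1. Among the 9 inhibitor genes the number called, 1, became 0 with library size only and in the robust fit, 2 with RLE size factors, with TMM without Ins1 and Ins2 and with a filter of at least 1 CPM in 2 libraries, and 3 with upper quartile factors, no filter and DESeq2. It was 1 to 3 when each library was left out in turn. The count of 1 with limma-voom was Dusp1, and that without CD63 low replicate 2 was Dusp6, in place of Spry4.

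The replicate numbers of the titles were not shown to pair the libraries, as the deviations of same-numbered libraries had a correlation of -0.15 across genes. With the replicate number as a block edgeR called 616 genes and 3 of the 9. With the crossed pairing, chosen after seeing the data, it called 942 genes and 3 of the 9. The table headers number the CD63 high libraries 1 and 2 but the CD63 low libraries 2 and 3, so CD63 high replicate 2 and CD63 low replicate 1, paired when crossed, share a header number. No source says what these numbers mark.

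The direction of 8 of the 9 genes was the same in all 15 alternatives. The exception, Spred1, turned to 0.0185 with upper quartile factors and ranged from -0.91 to 0.54 when each library was left out in turn, above 0 without CD63 high replicate 2 (0.54) and CD63 low replicate 1 (0.18), and was not tested under the filter of at least 1 CPM. The smallest two-sided p that an exact permutation of these 4 libraries allows is 0.333.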

Other observations

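Ratios of counts within a library do not depend on the scaling between libraries. The pairs below were chosen after their values were seen and carry no test. The Dusp1 count over the Dusp26 count was 1.79 and 1.76 for CD63 high replicates 1 and 2. For CD63 low it was 0.704 and 0.407, so that Dusp1 had more counts than Dusp26 in both CD63 high libraries and fewer in both CD63 low libraries. The Spry4 count over the Spred2 count was 1.61 and 2.14 against 0.333 and 0.169, again on either side of 1. The Spry4 count over the Spry2 count was 3.97 and 3.44 against 1.73 and 1.14, and the Dusp6 count over the Dusp4 count 0.728 and 1.55 against 0.286 and 0.456. None of the 4 ratios overlapped between the groups. For Dusp1 over Dusp26 and Spry4 over Spred2 this follows from the levels already given and adds nothing to them. Such a ratio shows unequal change of a pair of transcripts and does not say which of them moved.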
